A study of Danio rerio with 8 samples.

Results

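The genes examined were those of the constitutive proteasome, the protease that degrades ubiquitin-tagged proteins in every cell. They were chosen by name: probe sets annotated with exactly 1 gene symbol that begins with psma, psmb, psmc, psmd, psmf or psmg and a digit, leaving out the immunoproteasome genes psmb8a, psmb9a and psmb10. This took 52 of the 75212 probe sets on the array, which represented 47 of 19260 named genes. Of the 47 genes, 46 passed the level filter described with the processing and were tested. The remaining gene, psmb11a, lay at 4.18 to 4.72 on the log2 scale in the 8 arrays, below the filter at 5.52. The tested members nearest to that level were psmc3ip with a mean of 6.11, psmb13a with 6.16 and psmd5 with 6.27. The rule itself uses names and no measured value, but the gene set was picked with earlier results of these data known. It did take 4 genes that are not constitutive subunits. They are psmc3ip, known in mammals as a partner of meiotic recombinases, psmb11a, whose mammalian counterpart is a thymus-specific beta subunit, and psmb12 and psmb13a. The last 2 are further beta subunit genes of fish, and both stand directly beside psmb8a in the current zebrafish gene order on chromosome 19. Leading counts are therefore given both for all 46 tested members and for the 43 that remain without psmc3ip, psmb12 and psmb13a.

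The proteasome consists of a barrel-shaped core particle and a regulatory particle that caps it. Rings of alpha subunits (psma genes) form the gates of the core, and rings of beta subunits (psmb genes) form the chamber, in which only psmb5, psmb6 and psmb7 encode catalytic subunits. The regulatory particle has a base, with a ring of ATPases (psmc genes) that unfold the substrate, and a lid that includes the deubiquitinase encoded by psmd14. Dedicated chaperones assemble the core (psmg genes) and the base (psmd5, psmd9 and psmd10). In leukocytes exposed to interferon, psmb8, psmb9 and psmb10 products replace the catalytic subunits to form the immunoproteasome, which shapes the peptides presented on MHC class I.

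The samples came from the kidney, the blood-forming organ of adult zebrafish, of fish aged 60 days post fertilisation. Wild-type fish were compared with a double knockout of miR-142-3p, a microRNA of blood cells, labelled 142ab-/-. From each genotype, myelomonocytes (granulocytes and monocytes) and whole kidney marrow depleted of erythrocytes were sorted, with 2 independent samples in each of the 4 groups and 4 kidneys per sample, so each array averages several fish. The labels give this genotype for both the myelomonocytes and the marrow, and the absence of the microRNA from them was not measured. The sources used here do not give how the alleles were made.

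Each sample was hybridised to 1 one-colour Affymetrix whole-transcript array, and the deposited values are log2 levels. No array stood apart: over the tested genes, replicate arrays correlated at r = 0.988 to 0.992, and arrays of different groups at 0.907 to 0.974. No probe set was named for a miR-142 gene, so the knockout could not be checked on these arrays. The sort could be checked against its markers: the mean log2 level of 8 neutrophil markers was 12.74 to 12.78 in the myelomonocyte arrays and 12.28 to 12.43 in the marrow arrays. B cell markers lay at 6.45 to 6.79 in myelomonocytes against 8.95 to 9.51 in marrow. Monocyte and macrophage markers ran the other way, at 8.60 to 9.13 in myelomonocytes against 9.19 to 9.44 in marrow, and kidney tubule and podocyte markers were at 8.32 to 8.95 against 7.75 to 8.24. Erythroid markers remained at 10.25 to 11.00 in myelomonocytes and 11.63 to 12.03 in marrow despite the removal of erythrocytes. All values below are on the log2 scale, as a level for 1 array or as a difference between group means ± its standard error (2 arrays in each group). Calls rest on limma's moderated test, two-sided, with Benjamini-Hochberg adjustment over 13774 genes and a threshold of 0.05 on the adjusted p. Because whole samples were measured, fewer cells of a type and less RNA per cell cannot be told apart.

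The proteasome genes varied little between arrays. Their median replicate SD was 0.0889 against 0.124 over all genes tested, and the median range between the highest and the lowest of the 4 group means was 0.39 against 0.50. The range stayed under 1 for 42 of 46 members (91.3%, against 81.6% of all genes). The exceptions were psmd10 with a range of 1.70, psmb12 with 1.18, psmd5 with 1.04 and psmc3ip with 1.03. The members were also brighter than the tested genes as a whole, and no comparison with genes of like level was made. The median level over the 46 members was 8.62 and 8.57 in the wild-type myelomonocyte arrays and 8.80 and 8.70 in the knockout ones. In marrow it was 8.84 and 8.78 in wild type and 8.92 and 9.04 in the knockout. In both populations the knockout arrays lay above the wild-type arrays, and in both genotypes the marrow arrays lay above the myelomonocyte arrays. The median over all tested genes was also higher in marrow, at 7.95 to 7.97 against 7.77 to 7.89 in myelomonocytes, while by genotype its arrays overlapped in both populations.

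**Figure D1:**
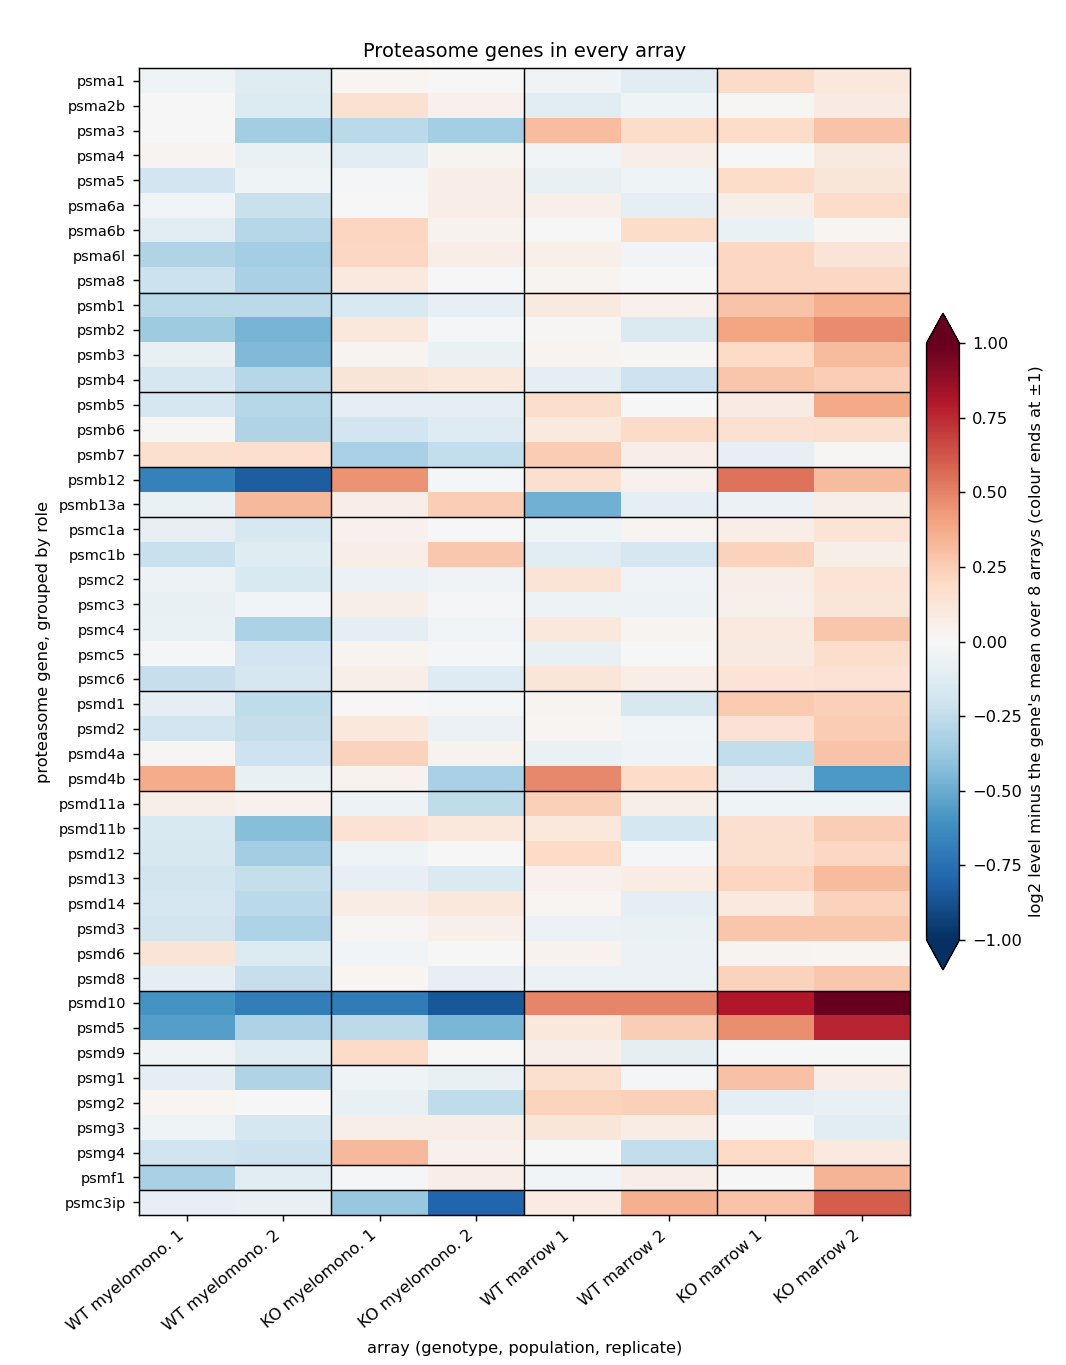
Log2 level of each of the 46 tested proteasome genes (rows, grouped by role) in each of the 8 arrays (columns), minus the gene's mean over the 8 arrays; red is higher, blue is lower, and the colour scale ends at ±1. The wild-type myelomonocyte columns are mostly blue and the knockout marrow columns mostly red, and psmd10, psmc3ip, psmb12 and psmd5 span the widest ranges.

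In knockout myelomonocytes psmb12, psma6l and psmb2 were higher than in wild-type myelomonocytes and psmb7 was lower, and the other 42 tested members were not called. The 3 members called higher are 6.52% of the 46, against 6.85% of all genes, and the 1 called lower is 2.17%, against 5.51% of all genes. At an unadjusted p under 0.05, 14 members passed (30.4%, against 27.3%). These shares were close to or below those of all genes. The differences were small and mostly in 1 direction: 36 members lay above 0 (78.3%, against 51.3% of all genes), and the median difference was 0.15 against 0.01 over all genes. For 32 members both knockout arrays lay above both wild-type arrays (69.6%, against 28.2%), and for 5 both lay below (10.9%, against 26.6%). Without psmc3ip, psmb12 and psmb13a, 31 of 43 lay above and 4 below, with 3 called. The calls rest on few arrays. Of the 4, only that of psmb12 was kept without replicate 1 of either genotype, and none without wild-type replicate 2. Those of psmb12 and psma6l were kept without knockout replicate 2. Without knockout replicate 1 psmc3ip was called lower, unlike in the full fit. In each of these refits fewer of all genes were called as well. When any 1 of the 8 arrays was left out, 35 to 38 members lay above 0, and their median stayed between 0.10 and 0.20.

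In marrow of the knockout fish psmb2 and psmb4 were higher than in wild type, no member was called lower, and 44 were not called. The 2 called members are 4.35%, against 4.73% of all genes called higher, and of all genes 4.55% were called lower. At an unadjusted p under 0.05, 12 members passed (26.1%, against 24.7% of all genes). Again most members lay slightly above 0: 39 of 46 (84.8%, against 50.9% of all genes), with a median of 0.15 against 0.01. Both knockout arrays lay above both wild-type arrays for 27 members (58.7%, against 28.1%) and below them for 5 (10.9%, against 28.5%). Among the 43 members, 25 lay above and 5 below. Both calls were lost without any 1 of the 4 marrow arrays, and only that of psmb2 was kept without either wild-type myelomonocyte array. Each of these refits also called fewer of all genes than the full fit, and the cause of the losses was not tested. When any 1 array was left out, 35 to 39 members lay above 0, and their median stayed between 0.11 and 0.20.

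**Figure D2:**
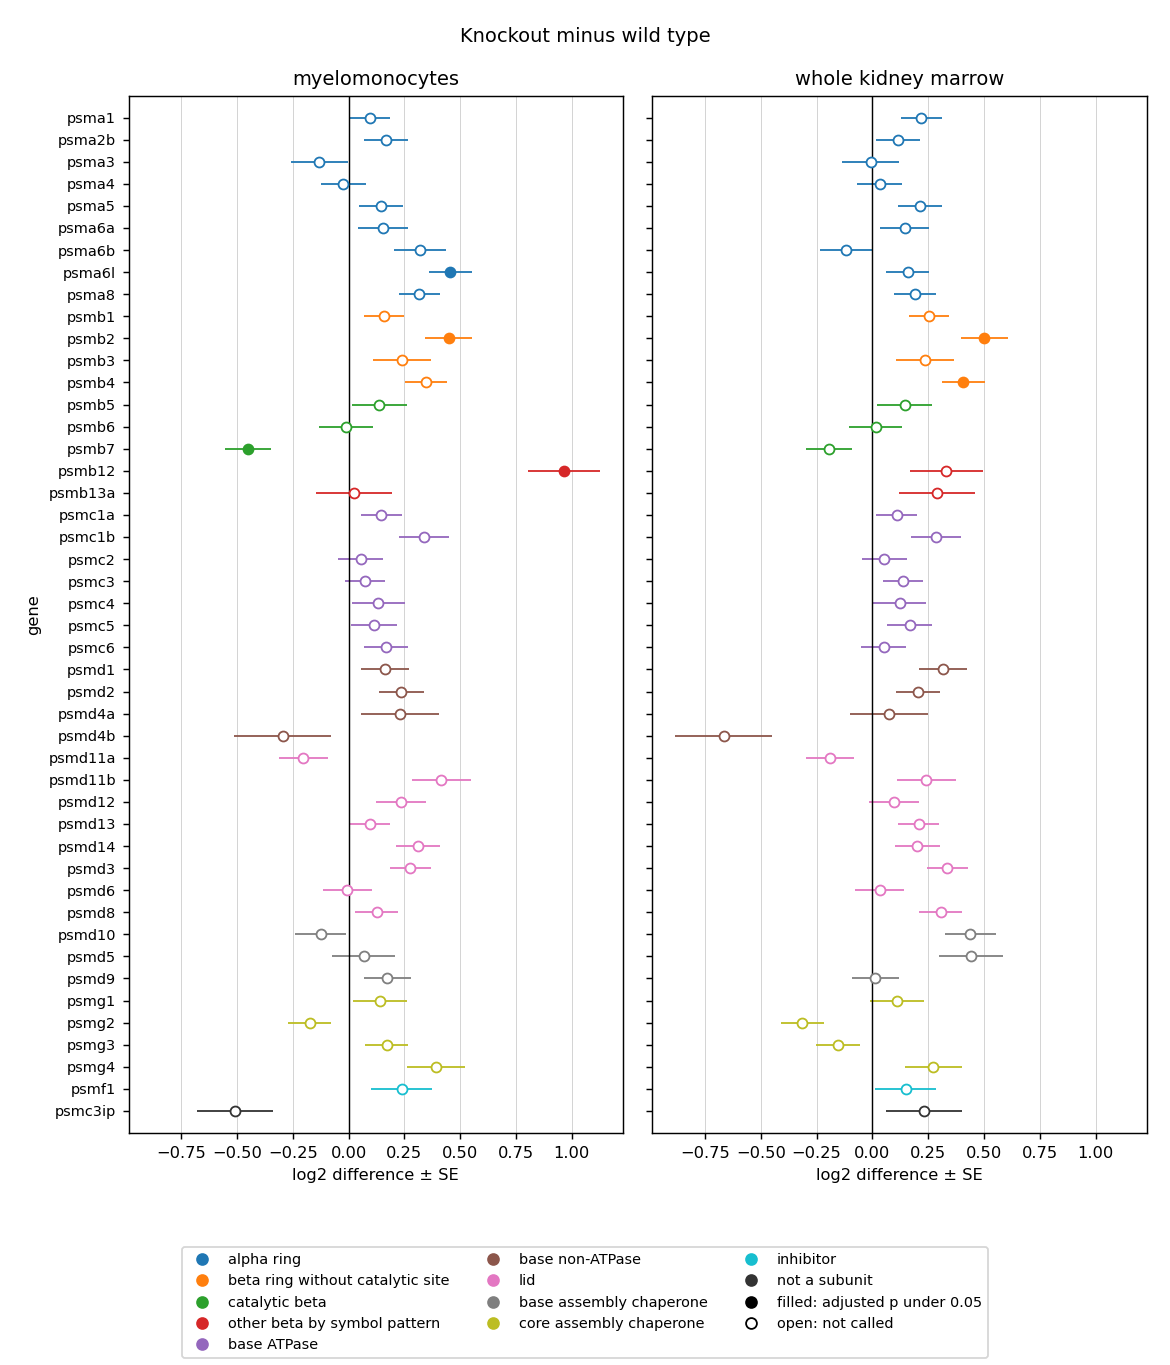
Difference in log2 level between knockout and wild type for each tested proteasome gene, in myelomonocytes (left) and whole kidney marrow (right); points are differences between means of 2 arrays, bars are ± 1 standard error of the limma fit, colours mark roles and filled points have an adjusted p under 0.05. Most points lie to the right of 0 in both panels, at a median of 0.15, and few are filled.

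The genotype comparisons in the 2 populations share no array, but whether the populations of 1 genotype were sorted from the same fish is not stated in the labels. Deviations of same-numbered samples of the 2 populations correlated across genes at r = 0.41 in wild type and 0.27 in the knockout. Over both, 34 members lay above 0 in each (73.9%, against 33.6% of all genes) and 5 lay below 0 in each (10.9%, against 31.4%). The knockout arrays exceeded the wild-type arrays in both populations for 24 members (52.2%, against 14.6%), and for 23 of the 43. The difference between the 2 genotype effects was called for no member by limma's moderated test, against 0.276% of all genes (38 genes). At an unadjusted p under 0.05, 5 members passed (10.9%, against 14% of all genes), and with a trended and robust variance estimate none was called either. This difference lay above 0 for 24 members (52.2%, against 54.4%), with a median of 0.00.

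The difference between genotypes averaged over both populations was added as a contrast after the data had been seen. It treats the marrow and myelomonocyte samples of a genotype as independent. Same-numbered samples deviated together at r = 0.41 in wild type and 0.27 in the knockout, and such dependence would make its standard errors too small. The averaged contrast called 12 members (26.1%, against 20% of all genes), 10 of them higher (21.7%, against 10.6% of all genes) and 2 lower (4.35%, against 9.37%). In all, 40 members lay above 0 (87%, against 50.7%). The members higher on average were psmb12 by 0.65, psmb2 by 0.47, psmb4 by 0.38, psmg4 and psmd11b by 0.33 each, psmd3, psma6l and psmc1b by 0.31 each, psmd14 by 0.26 and psma8 by 0.25. They span the alpha and beta rings, the ATPase ring, the lid and the core chaperones. The members lower on average were psmb7, which fell by 0.32, and psmg2, which fell by 0.24. Only the calls of psmb12, psmb2 and psmb4 held when any 1 of the 8 arrays was left out. Each of these refits called fewer members than the full fit, and fewer of all genes. Without replicate 1 of either knockout population or replicate 2 of either wild-type population, the share of members called fell below that of all genes. The members' median stayed between 0.12 and 0.18 in the refits, and 36 to 41 members lay above 0.

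**Figure D3:**
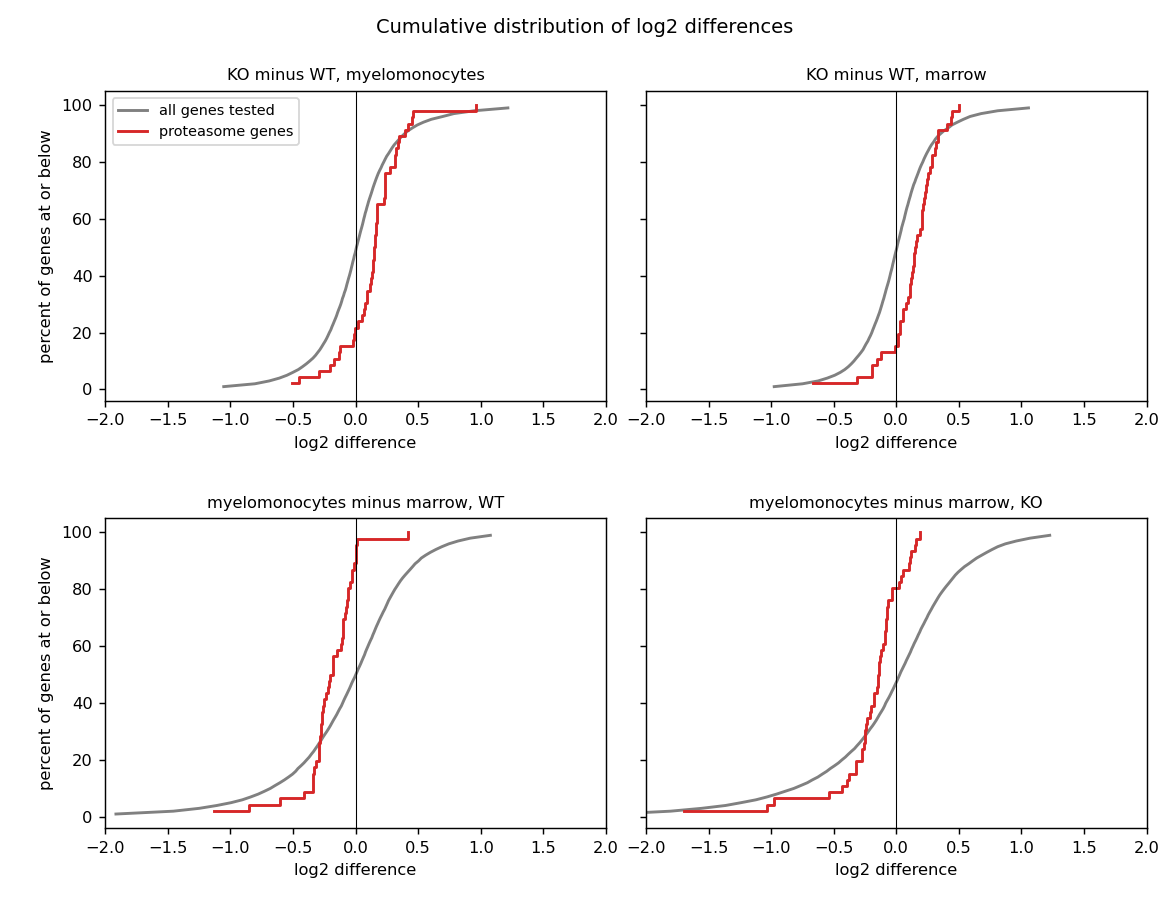
Percent of genes (vertical axis) with a log2 difference at or below the value on the horizontal axis, for the 46 proteasome genes (red) and for all genes tested (grey, from the 1st to the 99th percentile), in 4 comparisons. The red curves lie to the right of the grey ones through the middle of the knockout comparisons, with medians of 0.15 in both, and to the left in the population comparisons, with medians of -0.20 and -0.14.

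Marker lists were also compared by genotype. Of all genes, 6.85% were called higher and 5.51% lower in knockout myelomonocytes, and 4.73% and 4.55% in knockout marrow. In myelomonocytes 7 of 10 erythroid markers were called lower in the knockout, with a median difference of -0.70, and their mean level was 10.85 and 11.00 in the wild-type arrays against 10.26 and 10.25 in the knockout arrays. Of 14 cell division genes 3 were called lower, with mean levels of 8.56 and 8.70 in wild type against 8.11 and 8.26. Of 13 kidney tubule and podocyte markers 4 were called higher, with mean levels of 8.32 and 8.59 against 8.78 and 8.95. Of 8 monocyte and macrophage markers 2 were called lower (9.09 and 9.13 against 8.60 and 8.88), as was 1 of 5 thrombocyte markers (7.57 and 7.73 against 7.24 and 7.40). None of the 8 neutrophil markers was called, at a median difference of 0.06, while 1 of 6 B cell markers was called higher and 1 lower, and 1 of 8 T and NK cell markers higher. In marrow no erythroid, cell division, neutrophil or thrombocyte marker was called. There 4 of 8 T and NK cell markers were called lower and 1 higher (median difference of -0.45), while 2 of 8 monocyte and macrophage markers, 1 of 6 B cell markers and 1 of 13 kidney markers were called lower. The part of these shifts in the proteasome differences was not tested.

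The alpha rings, which gate the entry to the core, were represented by 9 genes. By their brightest probe sets 1 was called higher in knockout myelomonocytes, against 6.85% of all genes, and none in knockout marrow, against 4.73%. Differences ran from -0.13 to 0.46 in myelomonocytes and from -0.12 to 0.22 in marrow, with 7 of 9 above 0 in each. The gene called was psma6l, a paralog of psma6, at 9.79 and 9.75 in wild-type myelomonocytes, 10.30 and 10.16 in knockout myelomonocytes, 10.14 and 10.07 in wild-type marrow and 10.30 and 10.22 in knockout marrow. The wild-type myelomonocytes stood below all 6 other arrays. The difference was 0.46 ± 0.10 in myelomonocytes (limma adjusted p = 0.0211) and 0.16 ± 0.10 in marrow (limma adjusted p = 0.363). The myelomonocyte call was lost without either wild-type replicate or without knockout replicate 1 of the myelomonocytes. These values are those of the brightest probe set of psma6l. Its other 2, with mean levels of 5.73 and 5.86, differed in marrow by 0.97 and 1.03. Both passed the level filter only through their knockout arrays, so their calls are not counted as support.

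The other copies of the psma6 family moved by smaller amounts and were not called. Levels of psma6a were 7.08 and 6.89 in wild-type and 7.11 and 7.18 in knockout myelomonocytes, and 7.17 and 7.01 in wild-type and 7.17 and 7.29 in knockout marrow. Its differences were 0.15 in myelomonocytes and 0.14 in marrow. Levels of psma6b were 7.67 and 7.50 against 7.99 and 7.82 in myelomonocytes, and 7.78 and 7.96 against 7.71 and 7.80 in marrow. Here the knockout arrays lay above the wild-type arrays in myelomonocytes and overlapped with them in marrow, and the difference between the genotype effects, 0.44 ± 0.17, was not called (limma adjusted p = 0.297). Whether the probes tell the 3 copies apart was not tested.

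The alpha gene with the highest mean level on the array, psma3, was at 10.42 and 10.07 in wild-type and 10.15 and 10.08 in knockout myelomonocytes, and at 10.72 and 10.60 in wild-type and 10.60 and 10.70 in knockout marrow. The genotypes overlapped in both populations, while every marrow array lay above every myelomonocyte array. Of the remaining alpha genes psma8, in mammals a testis-specific alpha subunit but here at a mean level of 9.27, differed by 0.32 in myelomonocytes (limma adjusted p = 0.0636) and 0.19 in marrow. The genes psma1, psma2b, psma4 and psma5 differed by -0.02 to 0.17 in myelomonocytes and by 0.03 to 0.22 in marrow.

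The beta subunits without a catalytic site, psmb1, psmb2, psmb3 and psmb4, build the wall of the chamber. All 4 lay above 0 in both populations, as did 73.9% of all members and 33.6% of all genes. Their differences were 0.16 to 0.45 in myelomonocytes and 0.24 to 0.50 in marrow, and they hold both of the marrow calls. The level of psmb2, the highest of the beta genes on the array, was 10.88 and 10.77 in wild-type and 11.34 and 11.21 in knockout myelomonocytes, and 11.24 and 11.09 in wild-type and 11.63 and 11.70 in knockout marrow. The knockout arrays lay above the wild-type arrays in each population, and the wild-type marrow overlapped with the knockout myelomonocytes. The difference was 0.45 ± 0.10 in myelomonocytes (limma adjusted p = 0.0297) and 0.50 ± 0.10 in marrow (limma adjusted p = 0.0249). Each of these calls was lost without any 1 of the 4 arrays compared.

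Levels of psmb4, the lowest of this group on the array, were 8.68 and 8.56 in wild-type and 8.98 and 8.96 in knockout myelomonocytes, and 8.77 and 8.64 in wild-type and 9.13 and 9.09 in knockout marrow. All 4 knockout arrays lay above all 4 wild-type arrays. The difference was 0.41 ± 0.10 in marrow (limma adjusted p = 0.0382) and 0.35 ± 0.10 in myelomonocytes (limma adjusted p = 0.0538). The marrow call was lost without any 1 of the 4 marrow arrays and without either wild-type myelomonocyte array. Both other genes of the group were not called, psmb1 at 0.16 and 0.25 and psmb3 at 0.24 and 0.24 in myelomonocytes and marrow.

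Of the 3 catalytic beta subunits 1 was called lower in knockout myelomonocytes, against 5.51% of all genes. None was called in knockout marrow, against 9.28% of all genes in either direction. The level of psmb7, the trypsin-like subunit that psmb10 replaces in the immunoproteasome, was 8.56 and 8.57 in wild-type and 8.08 and 8.16 in knockout myelomonocytes, and 8.66 and 8.47 in wild-type and 8.32 and 8.42 in knockout marrow. The knockout arrays lay below the wild-type arrays in both populations. The difference was -0.45 ± 0.10 in myelomonocytes (limma adjusted p = 0.0270) and -0.19 ± 0.10 in marrow (limma adjusted p = 0.287), and the former was lost without any 1 of the 4 arrays compared. The caspase-like subunit gene psmb6 was at 9.34 and 9.02 in wild-type and 9.14 and 9.20 in knockout myelomonocytes, and at 9.42 and 9.52 in wild-type and 9.48 and 9.49 in knockout marrow. Its genotypes overlapped, with differences of -0.01 and 0.01. The gene of the chymotrypsin-like subunit, psmb5, differed by 0.14 in each population and was not called.

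**Figure D4:**
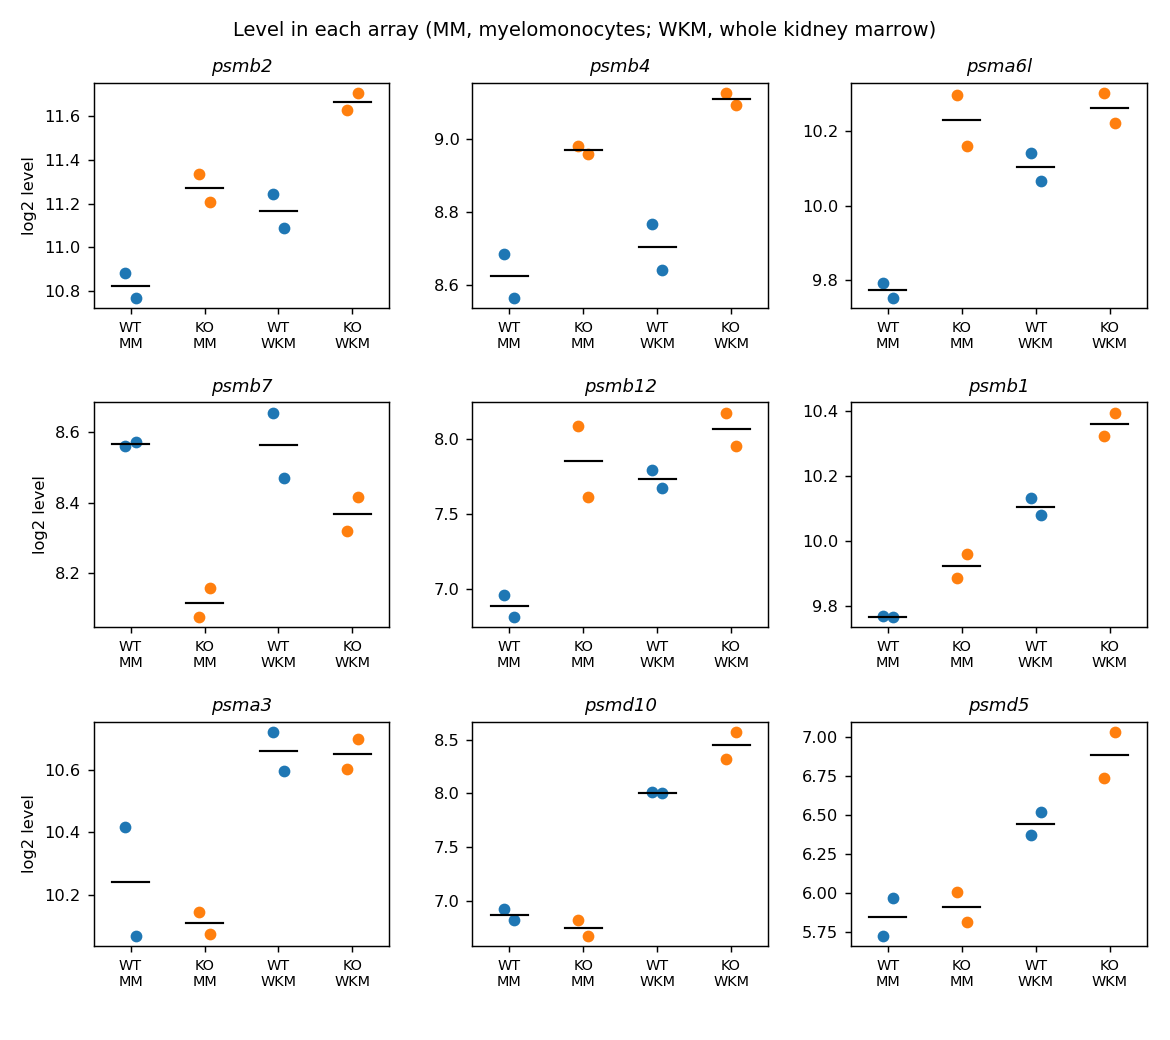
Log2 level of 9 proteasome genes in each of the 8 arrays (points; blue, wild type; orange, knockout), with the mean of each group of 2 as a horizontal line; each panel has its own vertical axis, which does not start at 0. For psmb4 all 4 knockout arrays lie above all 4 wild-type arrays, for psmb7 the knockout arrays lie below the wild-type arrays in each population, and for psmd10 both marrow groups lie above both myelomonocyte groups.

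With each gene represented by its brightest probe set, the largest genotype difference of any member was that of psmb12, one of the beta genes beside psmb8a. Its level was 6.96 and 6.81 in wild-type and 8.09 and 7.62 in knockout myelomonocytes, and 7.79 and 7.67 in wild-type and 8.18 and 7.95 in knockout marrow. The wild-type myelomonocytes stood apart below the other 6 arrays. The difference of 0.97 ± 0.16 in myelomonocytes, a 1.95-fold change, was called (limma adjusted p = 0.00910), and that in marrow, 0.33 ± 0.16, was not (limma adjusted p = 0.256). The difference between those effects, 0.63 ± 0.23, was not called (limma adjusted p = 0.279). Without wild-type replicate 2 of the myelomonocytes the call was lost at an adjusted p of 0.0574. Its neighbour psmb13a was not called for genotype, at 0.02 in myelomonocytes and 0.29 in marrow.

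All 7 genes of the ATPase ring lay above 0 in both populations, as did 73.9% of all members and 33.6% of all genes. Their differences were 0.05 to 0.34 in myelomonocytes and 0.05 to 0.28 in marrow, and none was called. The largest difference was that of psmc1b, with levels of 7.43 and 7.53 in wild-type and 7.72 and 7.92 in knockout myelomonocytes, and 7.54 and 7.48 in wild-type and 7.88 and 7.71 in knockout marrow. All 4 of its knockout arrays lay above all 4 wild-type arrays. The differences were 0.34 ± 0.11 (limma adjusted p = 0.0909) and 0.28 ± 0.11 (limma adjusted p = 0.160). Its paralog psmc1a, the dimmest ATPase gene on the array, was at 6.48 and 6.39 against 6.60 and 6.56 in myelomonocytes and at 6.52 and 6.58 against 6.62 and 6.70 in marrow. Its knockout arrays lay above the wild-type arrays in each population, by 0.15 and 0.11. The brightest, psmc4, was at 9.12 and 8.86 against 9.09 and 9.15 in myelomonocytes and at 9.29 and 9.21 against 9.28 and 9.46 in marrow. Its genotypes overlapped in both.

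The non-ATPase subunits of the base are the scaffolds psmd1 and psmd2 and the ubiquitin receptors psmd4a and psmd4b. The scaffolds lay above 0, psmd1 by 0.16 in myelomonocytes and 0.32 in marrow, and psmd2 by 0.24 and 0.20. Levels of psmd2 were 10.71 and 10.66 in wild-type and 11.00 and 10.84 in knockout myelomonocytes, and 10.91 and 10.87 in wild-type and 11.04 and 11.15 in knockout marrow. The knockout arrays of psmd2 were higher in each population, without a call. The copies of psmd4 differed in sign. Levels of psmd4a were 7.27 and 7.06 against 7.50 and 7.30 in myelomonocytes, and 7.20 and 7.22 against 7.02 and 7.55 in marrow. Levels of psmd4b were 8.04 and 7.60 against 7.70 and 7.35 in myelomonocytes, and 8.15 and 7.85 against 7.57 and 7.09 in marrow. For psmd4b the knockout arrays lay below the wild-type arrays in marrow and overlapped with them in myelomonocytes. Its differences of -0.30 ± 0.22 and -0.67 ± 0.22 were not called (limma adjusted p = 0.431 and 0.102), nor were those of psmd4a at 0.23 and 0.07. The replicate SD of psmd4b in knockout marrow was 0.34, against a median of 0.0889 for the members.

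The lid had 8 genes, none of which was called in myelomonocytes (12.4% of all genes) or in marrow (9.28%). In myelomonocytes 6 lay above 0 and in marrow 7. Its paralogs psmd11a and psmd11b also differed in sign: psmd11a was at 8.40 and 8.39 against 8.29 and 8.09 in myelomonocytes and at 8.58 and 8.41 against 8.30 and 8.31 in marrow. The knockout arrays of psmd11a were lower in both populations, by 0.20 and 0.19 (limma adjusted p = 0.276 and 0.323). Levels of psmd11b were 8.94 and 8.67 against 9.24 and 9.20 in myelomonocytes, and 9.20 and 8.92 against 9.26 and 9.35 in marrow. The knockout arrays of psmd11b were higher in both populations, by 0.42 and 0.24 (limma adjusted p = 0.0821 and 0.306). No test of the difference between paralogs was made. The lid gene with the highest level, psmd3, was at 9.16 and 9.03 against 9.35 and 9.39 in myelomonocytes and at 9.28 and 9.27 against 9.62 and 9.61 in marrow. Its knockout arrays were higher in both, by 0.28 and 0.34. The deubiquitinase gene psmd14 differed by 0.31 and 0.20 and psmd6 by -0.01 and 0.03. The remaining lid genes psmd8, psmd12 and psmd13 differed by 0.09 to 0.23 in myelomonocytes and 0.10 to 0.31 in marrow.

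Among the chaperones of core assembly psmg4 was at 9.74 and 9.73 against 10.26 and 9.98 in myelomonocytes and at 9.93 and 9.70 against 10.14 and 10.03 in marrow. The dimmest of the group, psmg2, was at 7.67 and 7.65 against 7.58 and 7.40 in myelomonocytes and at 7.87 and 7.89 against 7.56 and 7.58 in marrow. The knockout arrays were thus higher for psmg4 and lower for psmg2 in both populations, with no call in either. Their differences were 0.39 and 0.27 for psmg4 and -0.17 and -0.31 for psmg2, while psmg1 differed by 0.14 and 0.11 and psmg3 by 0.17 and -0.15. The inhibitor gene psmf1 was at 7.54 and 7.75 against 7.84 and 7.92 in myelomonocytes and at 7.83 and 7.93 against 7.86 and 8.19 in marrow, without a call. Its knockout arrays lay above the wild-type arrays in myelomonocytes and overlapped with them in marrow, with differences of 0.24 and 0.15. The chaperones of base assembly psmd5 and psmd10 differed by 0.44 each in marrow (limma adjusted p = 0.0978 and 0.0535) and by 0.07 and -0.13 in myelomonocytes. For psmd10 the difference between those effects, -0.56 ± 0.16, was not called (limma adjusted p = 0.190), and psmd9 differed by 0.17 and 0.01. The non-subunit gene psmc3ip differed by -0.51 ± 0.17 in myelomonocytes (limma adjusted p = 0.0956) and by 0.23 in marrow.

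Several members had more than 1 probe set, and the brightest was used. The other 2 probe sets of psma6l, with mean levels of 5.73 and 5.86 near the level filter, showed larger genotype differences than the bright one. One lay at 5.28 and 5.28 against 6.03 and 5.97 in myelomonocytes and at 5.49 and 5.16 against 6.22 and 6.38 in marrow. The other lay at 5.35 and 5.37 against 6.22 and 6.17 in myelomonocytes and at 5.61 and 5.24 against 6.39 and 6.51 in marrow. On both of them all 4 knockout arrays lay above all 4 wild-type arrays. In a fit over every probe set their differences were 0.72 ± 0.13 and 0.83 ± 0.13 in myelomonocytes and 0.97 ± 0.13 and 1.03 ± 0.13 in marrow. All of these were called (limma adjusted p from 0.00430 to 0.0104), whereas the bright probe set was not called in marrow. However, the wild-type arrays of the 2 dim probe sets lay at 5.16 to 5.61, mostly below the filter at 5.52. Both passed it only through their knockout arrays, so these calls are no support for a difference in marrow.

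The dimmer probe set of psmb4, with a mean of 5.94, lay at 5.84 and 5.59 against 6.23 and 6.29 in myelomonocytes and at 5.67 and 5.69 against 5.91 and 6.29 in marrow. It moved the same way as the bright one, by 0.55 ± 0.14 (limma adjusted p = 0.0440) and 0.42 ± 0.14 (limma adjusted p = 0.113). The 2 probe sets of psmd2 differed by 0.24 and 0.26 in myelomonocytes and by 0.20 and 0.25 in marrow. Those of psmc3 did not share a sign in myelomonocytes, at 0.07 for the brighter and -0.31 for the dimmer one, and neither was called. No probe set had psmd7 or psma7 as its only symbol, so the lid gene psmd7 was not analysed here, and no alpha gene was measured under the name psma7.

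In the comparison of cell populations, wild-type myelomonocytes had lower levels than wild-type marrow for 9 members and higher levels for none. The 9 are 19.6% of the members, against 20.1% of all genes called lower and 15.5% called higher. The median difference was -0.20 against 0.00 over all genes, only 4 members lay above 0 (8.7%, against 50.2%), and both myelomonocyte arrays lay below both marrow arrays for 28 members (60.9%, against 37.1%). After quantile normalization, which moved the median of all genes to 0.09, the members' median was -0.08. Then 15 of 46 members lay above 0, against 58.7% of all genes. Both myelomonocyte arrays lay below both marrow arrays for 19 members (41.3%, against 29.6%). The calls over all genes turned from 2134 higher and 2766 lower to 3039 higher and 2182 lower. The 9 calls rest on few arrays, and fewer members were called without any 1 of the wild-type arrays or either knockout marrow array. Each of these refits also called fewer of all genes, and in each the share of members called was below that of all genes. When any 1 of the 8 arrays was left out, the members' median stayed between -0.23 and -0.13, and 4 to 8 members lay above 0.

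In knockout fish 8 members were called lower in myelomonocytes than in marrow (17.4%, against 22.6% of all genes) and none higher (21.5% of all genes). The median was -0.14 against 0.03 over all genes, 9 members lay above 0 (19.6%, against 52.7%), and both myelomonocyte arrays lay below both marrow arrays for 29 members (63%, against 35.2%). Without knockout marrow replicate 2 only the calls of psmd10, psmd5, psmb1 and psmc3ip were kept. That refit called fewer of all genes as well, and the members' median in it was -0.14. In both genotypes 21 members had their myelomonocyte arrays below their marrow arrays (45.7%, against 27.7% of all genes). Called lower in both genotypes were psmd10, psmd5, psmb1, psmb2 and psma3 (10.9%, against 15.8% of all genes), and called higher in both was none (11.6% of all genes).

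**Figure D5:**
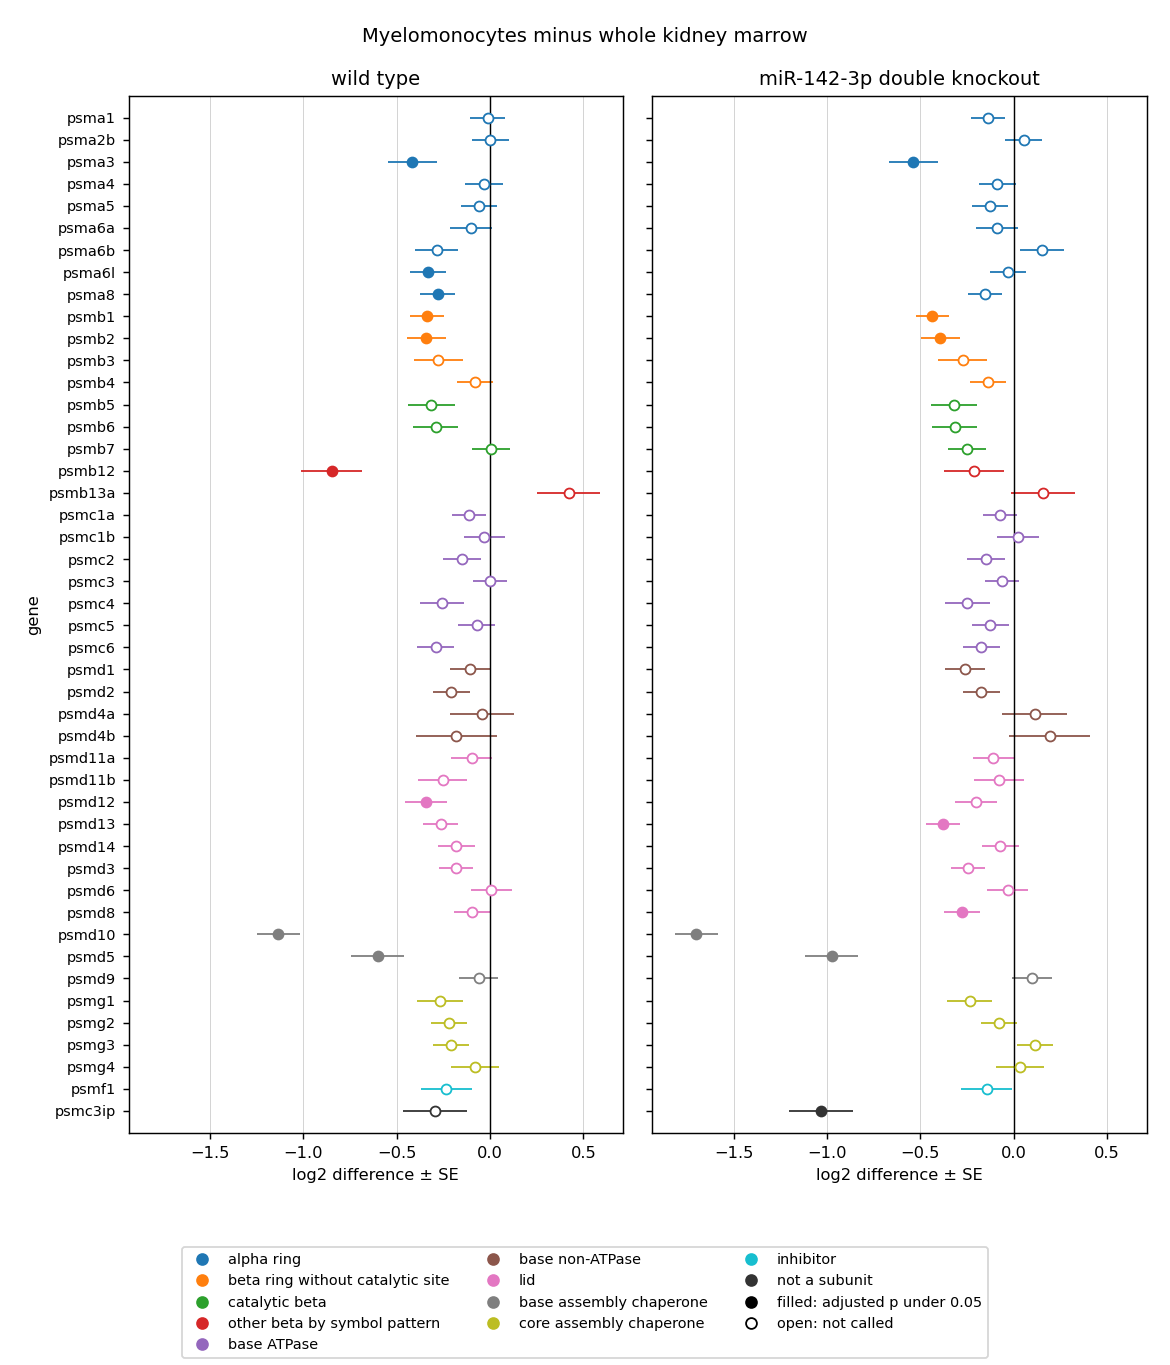
Difference in log2 level between myelomonocytes and whole kidney marrow for each tested proteasome gene, in wild type (left) and knockout (right); points are differences between means of 2 arrays, bars are ± 1 standard error of the limma fit, colours mark roles and filled points have an adjusted p under 0.05. Most points lie left of 0, with psmd10 farthest left in both panels at -1.14 and -1.70.

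The largest population difference belonged to psmd10, whose product, known in mammals as gankyrin, is a chaperone of the base. Its level was 6.92 and 6.82 in wild-type myelomonocytes against 8.01 and 8.01 in wild-type marrow, and 6.82 and 6.67 in knockout myelomonocytes against 8.32 and 8.57 in knockout marrow. The populations were separated by more than 1 in both genotypes. The difference was -1.14 ± 0.12 in wild type (limma adjusted p = 0.000372) and -1.70 ± 0.12 in the knockout (limma adjusted p = 5.49e-05), where the level in myelomonocytes was 0.308 times that in marrow. Both calls held when any 1 of the 8 arrays was left out.

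The base chaperone gene psmd5 had levels of 5.72 and 5.97 in wild-type myelomonocytes against 6.37 and 6.52 in wild-type marrow, and 6.01 and 5.81 against 6.74 and 7.03 in the knockout. The myelomonocyte arrays were below the marrow arrays in each genotype. Its differences were -0.60 ± 0.14 (limma adjusted p = 0.0135) and -0.98 ± 0.14 (limma adjusted p = 0.00109), the former lost without wild-type myelomonocyte replicate 1 or wild-type marrow replicate 2. For psmc3ip the levels were 6.03 and 6.03 against 6.19 and 6.46 in wild type, and 5.73 and 5.31 against 6.39 and 6.71 in the knockout. Only the knockout difference of -1.03 ± 0.17 was called (limma adjusted p = 0.00198), against -0.29 in wild type, and the difference between them was not called (limma adjusted p = 0.237).

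The other called members differed less between populations. In the beta ring psmb1 was at 9.77 and 9.77 in wild-type myelomonocytes against 10.13 and 10.08 in wild-type marrow, and at 9.89 and 9.96 against 10.32 and 10.39 in the knockout. Its 4 marrow arrays lay above its 4 myelomonocyte arrays, by 0.34 ± 0.09 in wild type (limma adjusted p = 0.0218) and 0.44 ± 0.09 in the knockout (limma adjusted p = 0.00564). The beta gene psmb2 was lower in myelomonocytes by 0.34 and 0.39, and the alpha gene psma3 by 0.42 and 0.54, from the array levels given above. In wild type alone psmb12 was called at -0.85, psma6l at -0.33, psmd12 at -0.34 and psma8 at -0.28. The call of psma6l rests on its brightest probe set. In the fit over every probe set its other 2 differed by -0.05 and -0.07 and were not called (limma adjusted p = 0.784 and 0.723). Their wild-type levels mostly lay below the level filter. The scaffold gene of the lid psmd12 was at 9.03 and 8.84 in wild-type myelomonocytes against 9.39 and 9.17 in wild-type marrow.

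In the knockout alone psmd13 was called at -0.38 and psmd8 at -0.28, both lid genes. Levels of psmd13 were 8.59 and 8.52 in knockout myelomonocytes against 8.89 and 8.98 in knockout marrow. Those of psmd8 were 9.05 and 8.95 against 9.26 and 9.30. The calls of psmd12 and psmd8 were lost without any 1 of the 8 arrays. Of the wild-type calls, those of psmb2 and psma8 were kept in 2 of the 8 fits that left out 1 array, that of psma3 in 3, and those of psmb1 and psma6l in 4. In the knockout the call of psmb1 was kept in all 8, those of psma3 and psmd13 in 7 and that of psmb2 in 6. No member's population difference was shown to depend on genotype, since none was called for the difference between the differences.

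The marker lists were compared between the populations too. Of all genes, 15.5% were called higher and 20.1% lower in wild-type myelomonocytes, and 21.5% and 22.6% in knockout ones. In myelomonocytes against marrow, 6 of 8 neutrophil markers were called higher in each genotype, and 8 of 10 erythroid markers in wild type and 10 of 10 in the knockout were called lower, at medians of -0.72 and -1.64. Cell division genes were lower for 8 of 14 and 13 of 14, at medians of -0.61 and -1.16, with mean levels of 8.56 and 8.70 against 9.15 and 9.29 in wild type and 8.11 and 8.26 against 9.14 and 9.54 in the knockout. All 6 B cell markers in wild type and 5 of them in the knockout were called lower, and the remaining 1 was called higher in the knockout. Of 8 tested T and NK cell markers, 8 and 6 were called lower. Means over the 10 T and NK cell markers on the array were 5.89 to 6.10 in myelomonocytes against 7.59 to 8.17 in marrow. In single myelomonocyte arrays 1 or 2 of the 6 B cell markers and 2 to 5 of these 10 T and NK cell markers lay below the level filter. Thrombocyte markers were called lower for 3 of 5 and higher for 1 in each genotype. Of 8 monocyte and macrophage markers 1 was called higher in each genotype and 2 and 4 lower, and of 13 kidney markers 1 and 9 were called higher and 1 lower in each. The part of these shifts in the lower levels of psmd10, psmd5, psmc3ip and the other members was not tested.

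Genes that act with the proteasome were taken from a list of 42 names, of which 31 were measured and tested. In knockout myelomonocytes 4 of the 31 were called higher, against 6.85% of all genes, and none lower, against 5.51%. They were psmb10 by 0.67, the activator subunit psme2 by 0.64, nfe2l1b by 0.53, a homolog of the mammalian transcription factor that raises proteasome gene expression when the proteasome is inhibited, and the ubiquitin shuttle factor gene rad23ab by 0.45. In knockout marrow 2 of the 31, psmb10 and rad23ab, were called higher, by 0.55 and 0.43, against 4.73% of all genes. None was lower there, against 4.55%. No gene of the list was called for the difference between the genotype effects, against 0.276% of all genes.

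The immunoproteasome gene psmb10 was at 8.76 and 8.81 in wild-type and 9.51 and 9.40 in knockout myelomonocytes, while psmb8a and psmb9a, at differences of 0.10 and 0.11 there, were not called. Between populations, zfand5a was called higher in wild-type myelomonocytes than in marrow, by 0.44, and nfe2l1b in knockout myelomonocytes, by 0.41. Called lower in both genotypes were akirin2, which in mammals brings proteasomes into the nucleus, rad23ab, rad23b and the ubiquitin fusion gene rps27a, and psme2 was called lower in wild type. The shuttle factor gene rad23ab showed the largest of these, at -0.57 and -0.56. Of the 31 genes, 1 was thus called higher and 5 lower in wild type, against 15.5% and 20.1% of all genes. In the knockout it was 1 higher and 4 lower, against 21.5% and 22.6%.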

How the data were processed

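The deposited table covers 75212 probe sets, with a value for each of the 8 arrays. That these deposited values are log2 levels was read from their range, 1.63 to 13.76. The authors' background correction, summarisation and normalization, and the scan dates, were not stated in the labels or the table, so no batch could be tested. Per the labels' protocols, biotinylated cRNA was made from 200 ng of total RNA. Gene names came from the platform annotation, in which 20806 probe sets had 1 symbol, 855 several (these were left out) and 53551 none here. All 47 member genes matched the RefSeq gene table of assembly GRCz12tu through their Entrez IDs, and none was renamed. That table was used for names and gene order only.

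Each gene was represented by its brightest probe set. A level filter at the 50th percentile over the table, a mean of 5.52, passed 13774 genes and removed 5486. All 8 arrays entered 1 fit of group means in limma 3.58.1 (R 4.3.3), with 4 residual and 4.00 prior degrees of freedom. Adjustment was by Benjamini-Hochberg across the genes passed, with calls at an adjusted p under 0.05. The fit was tested on simulated data of 13000 probe sets drawn from those above the filter. In the myelomonocyte genotype comparison, 100 were changed at each size and the rest were unchanged. It called 7% of those changed by 0.5 and 58% of those changed by 1. In the data themselves 12.4% of genes were called in that comparison, and the adjustment depends on this share. The simulated shares therefore do not give the shares that would be called among the members. The number of arrays limits the precision, and the members' standard errors had a median of 0.11.

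The members and lists were chosen with earlier results of these data known. Array values are printed for members called in a genotype comparison or in the difference between them, for up to 8 members per direction called in a population comparison, for the members with the highest and lowest level in a role, for paralogs and for members with several probe sets; array values of psmd9, psmg1, psmg3, psmb3, psmb5 and others are given as differences or ranges. Samples of the same replicate number deviated together at r from -0.000189 to 0.41 across genes, and with 2 numbers per group they were not taken as pairs. Alternatives changed the level filter, the probe set rule, the normalization, array weights, the variance estimate, the arrays in the fit and the replicate block.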

Additional observations from a re-analysis of the deposited data

How the results depend on the processing

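No member call changed its direction under any setting tried. The 35 calls of 20 members, over the genotype, population and averaged comparisons, were kept in 162 of 280 refits that left out 1 array and in 309 of 337 refits under other settings. Members called in knockout myelomonocytes numbered 4 as reported, 8 with a trended and robust variance estimate (17.4%, against 15% of all genes), 1 with only the 4 arrays compared (1108 genes called over all, against 1703) and 0 to 4 when 1 array was left out (719 to 1483 genes). In knockout marrow 2 members became 1 without the level filter, 4 with the filter at the 60th percentile, 5 after quantile normalization (10.9%, against 10.1% of all genes, of which 832 were higher and 566 lower, against 651 and 627), 4 after centring on the array median, 4 with array weights, 1 with only the 4 arrays compared and 0 to 2 when 1 array was left out (361 to 1392 genes, against 1278). In knockout marrow the 1 member was 2.13% without the level filter and 2.17% with only the 4 arrays compared, against 5.88% and 8.45% of all genes. The 4 members were 8.89% with the 60th percentile filter, 8.7% after centring and 8.7% with array weights, against 10.7%, 9% and 11.6%. For the difference between the genotype effects no member was called in any setting. Over all genes that difference was called for 38 genes as reported, 24 after quantile normalization, 112 with the trended and robust estimate, 77 with the replicate block and 1 to 25 when 1 array was left out. The 9 members lower in wild-type myelomonocytes than in marrow became 5 without the level filter, 5 with only the 4 arrays compared and 2 to 9 when 1 array was left out (2950 to 5293 genes, against 4900), and the 8 in the knockout became 4 to 8. In the knockout, every refit that left out 1 array also called fewer of all genes than the full fit. The share of members called stayed below that of all genes in each. The 5 in wild type were 10.6% without the level filter and 10.9% with only the 4 arrays compared, against 24.9% and 36.5% of all genes. Counts also rose in wild type, to 11 with the 60th percentile filter (24.4%, against 40.1%) or array weights (23.9%, against 39.9%). In the knockout they rose to 12 with the trended and robust estimate (26.1%, against 45%). For genotype averaged over the populations, 12 members became 4 to 8 and 2754 genes became 1742 to 2552 when 1 array was left out, and quantile normalization or the trended and robust estimate gave 16 members. The 16 were 34.8% of the members, against 21% of all genes after quantile normalization and 22.3% with the trended and robust estimate. The cause of these changes in the counts was not tested. The members' median differences kept their sign in both genotype and both population comparisons. The replicate number was also used as a block, which is not known to pair the samples. With the block 5 members were called higher and 1 lower in knockout myelomonocytes (13%, against 15.1% of all genes). In knockout marrow 2 were higher and 1 lower (psmd4b) (6.52%, against 11.4%). In the population comparisons the block gave 9 lower and 1 higher (psmb13a) in wild type (21.7%, against 38.8%) and 8 lower in the knockout (17.4%, against 46.7%). For genotype averaged over the populations it gave 11 higher and 3 lower (30.4%, against 22.7%). Averaging the probe sets of a gene gave psma6l differences of 0.67 in myelomonocytes and 0.72 in marrow, both called. Those averages include its 2 dim probe sets, whose wild-type levels mostly lay below the level filter.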
